A study of Mus musculus with 8 samples.

Results

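Retnla, the gene for resistin-like alpha (also called RELMα or FIZZ1), was followed across the 4 conditions of an RNA-Seq experiment in NIH3T3 cells, a mouse embryonic fibroblast line. Its row in each sample was the assembled locus that best overlapped the annotated gene (ENSMUSG00000061100.3), which lies on the + strand of mm9 at chr16:48842665-48844574 and has 4 exons. It is 1 of the 20182 genes that had values in every sample. Retnla was chosen by its FPKM levels, which rose with Hedgehog medium in these same data, so its own levels and differences are given as a description, without a test.

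RELMα is a small secreted protein rich in cysteines. It is best known as a product of alternatively activated macrophages and of inflamed lung epithelium, where interleukin-4 (IL-4) and IL-13 induce it through the transcription factor STAT6, and C/EBP proteins also act on its promoter. In fibroblasts and vessels it has been linked to collagen production and to Notch signalling. Hedgehog ligands bind the receptor Ptch1, which relieves the inhibition of Smo and lets the Gli transcription factors act on their target genes.

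Each condition had 2 samples. Control samples were NIH3T3-pc3.1 cells, a stable line carrying empty pcDNA3.1 (Zeo+), under vehicle. Hh-CM samples were the same line under Hh-CM. Esrrb and Esrrb+Hh-CM samples were NIH3T3-Esrrb cells, which carry pcDNA3.1 (Zeo+)-Esrrb, under vehicle or Hh-CM. Esrrb is an orphan nuclear receptor. Hh-CM was collected from HEK293 (human embryonic kidney) cells whose transgene encodes the N-terminus of Sonic Hedgehog. Vehicle was the corresponding medium of HEK293 cells lacking the transgene, diluted alike, and either was applied for 48 h. The base medium was DMEM free of phenol red, with newborn calf serum. All cells had been selected with Zeocin, and cells from independent transfections were pooled into each line. The methods call the 2 samples of a condition biological replicates. They do not say whether these came from separate cultures, so p-values cover only the spread between these samples. The comparisons ask whether Hh-CM changes expression in each line, and how Esrrb alters expression and the response.

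Levels are in FPKM (fragment numbers scaled to transcript length and to the mapped fragments of the library), with the confidence limits that Cufflinks gave each locus. Steps between low values put the depth of the libraries at 0.742 to 1.54 times that of Control 1. The Esrrb gene was listed at 0 in all 4 NIH3T3-Esrrb samples and reached 0.0281 FPKM elsewhere, so its locus did not mark the line that carries the vector. The species of the Esrrb cDNA is not given in the sources used here, and Esrrb and Esrrb+Hh-CM below name libraries by their labels. Esrrb 1 and Hh-CM 2 shared 8080 locus numbers assigned by Cufflinks at identical positions, the number of the Retnla locus among them, while no other pair of samples shared more than 106. Esrrb 1 also had 480 loci marked as having too little data, against 62 to 78 in the others. What this says about Esrrb 1 was not tested. Of the 25 calls between Esrrb and Esrrb+Hh-CM samples among the genes named here, 23 held without Esrrb 1, and values without it are given beside the other 2.

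The stretch directly upstream of the annotated start is shown because it holds matches to STAT6-type and C/EBP-type motifs, and a near match to a Gli site. It was read from RefSeq's promoter table (build GRCm38.p6), whose window runs from 250 bases before to 50 after the RefSeq start. The same letters occur once on chromosome 16 of mm9, on the + strand at chr16:48842472-48842664 for the part printed. Capitals mark, from left to right, a STAT6-type match (TTCNNNNGAA), a C/EBP-type match (TTGCNNAA) and a match with 1 mismatch to the Gli motif GACCACCCA on the opposite strand.
Retnla upstream: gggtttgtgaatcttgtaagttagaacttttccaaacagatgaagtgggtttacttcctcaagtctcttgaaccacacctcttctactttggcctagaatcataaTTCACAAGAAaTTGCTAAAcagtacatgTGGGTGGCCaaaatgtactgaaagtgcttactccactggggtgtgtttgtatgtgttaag

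Counted from the RefSeq start, the STAT6-type match begins at -145, the C/EBP-type match at -134 and the inexact Gli match at -117. Of the 32851 windows in the table, 6.95% hold a STAT6-type match, 10.8% a C/EBP-type match and 6.74% a Gli match with at most 1 mismatch, on either strand. No exact Gli motif (0.253% of windows) and no exact Esrrb response element TCAAGGTCA (0.423%) were in the Retnla window. The shorter nuclear receptor site AGGTCA, which the response element contains, was present at -50 (16.3% of windows) and a TATAAA box at -30 (13.6%). The RefSeq start lies 57 bases downstream of the annotated start, so AGGTCA and TATAAA fall inside annotated exon 1, outside the printed stretch. Such matches describe letters and are not evidence of binding.

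Retnlg, a relative of Retnla that lies downstream of it, was aligned to it to see whether these letters are shared. The promoter windows were 79.1% identical over 225 aligned bases. The 40 bases around the STAT6-type match are printed for both genes, with the same capitals, at chr16:48842567-48842606 for Retnla and chr16:48872639-48872678 for Retnlg, both on the + strand of mm9.
Retnla stretch: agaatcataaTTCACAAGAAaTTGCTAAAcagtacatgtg
Retnlg stretch: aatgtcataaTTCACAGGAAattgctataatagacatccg

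The STAT6-type match was present in both. At the place of the C/EBP-type match beside it in Retnla, Retnlg held ttgctata, which has 1 mismatch to the motif. Elsewhere in its window Retnlg held a C/EBP-type match at -246, on the opposite strand, and AGGTCA at -139 and at 23. It had no Gli match with at most 1 mismatch.

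Retnla was close to absent under vehicle and abundant under Hh-CM. It was listed at 0 in Control 1 and at 0.403 FPKM in Control 2, with confidence limits of 0.0890 and 0.712. In the Hh-CM samples it reached 35.1 FPKM (limits 30.5 and 39.7) and 41.6 FPKM (36.9 and 46.3). Both Hh-CM samples lay far above both Control samples. In the Esrrb samples it was 1.04 FPKM (0 and 2.29) and 1.14 FPKM (0.322 and 1.93). The Esrrb+Hh-CM samples held the highest levels, 144.2 and 144.1 FPKM.

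The first Esrrb+Hh-CM value needs care, because it lies above its own limits of 90.3 and 110.5 FPKM, whose midpoint is 100.4. The second lies inside its limits of 131.8 and 156.4. In Esrrb+Hh-CM 1, 10.8% of loci with at least 1 FPKM lay outside their own limits, and the share was 9.78% to 14.1% in the other samples. The near equality of both Esrrb+Hh-CM values is therefore not a measure of their precision.

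**Figure D1:**
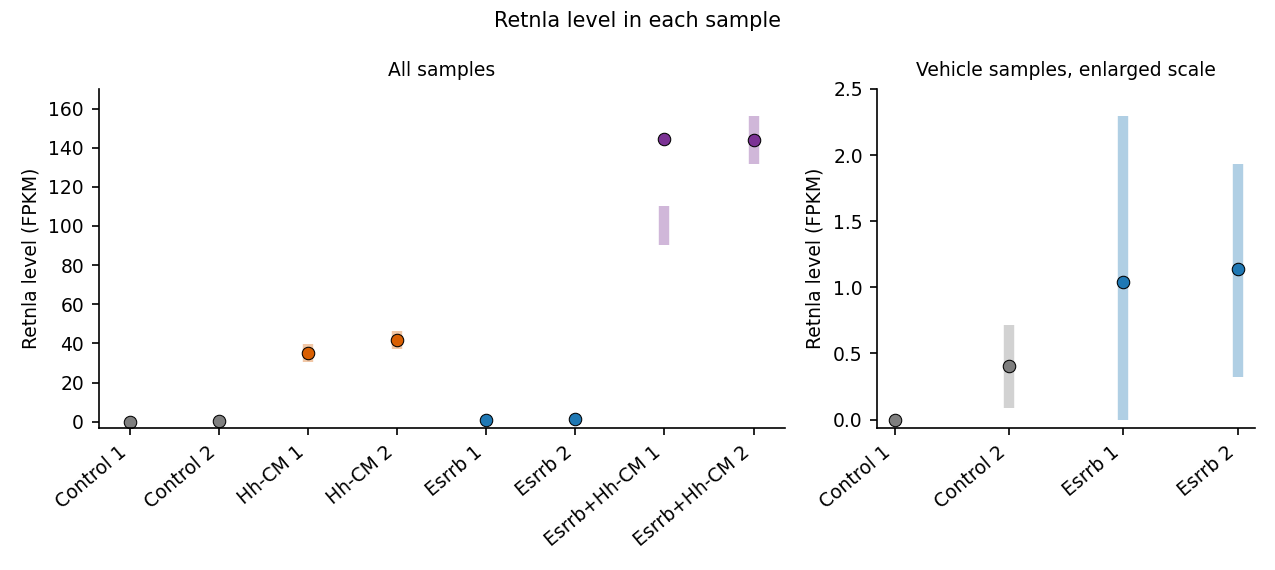
Retnla level in FPKM for each of the 8 samples (points) with the confidence limits Cufflinks gave (bars), and the vehicle samples again on an enlarged scale. The Hh-CM-treated samples stand at 35.1 FPKM or more and the vehicle samples at 1.14 FPKM or less, and the point of Esrrb+Hh-CM 1 lies above its bar.

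The mean level was 0.202 ± 0.285 FPKM in Control, 1.09 ± 0.0661 in Esrrb, 38.3 ± 4.63 in Hh-CM and 144.1 ± 0.0849 in Esrrb+Hh-CM samples (SD, n = 2 each). With the midpoints of the limits in place of the values, the Esrrb+Hh-CM mean was 122 FPKM. In this order of conditions, no sample overlapped a neighbouring group. The limits of Control 2 overlapped those of both Esrrb samples, so these neighbours in the order were not separated by them. The limits of the Hh-CM samples overlapped neither the vehicle nor the Esrrb+Hh-CM samples.

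The low values rest on few fragments. From the steps between low values, 1 fragment on a transcript of the length of Retnla (598 bases) was worth 0.103 to 0.214 FPKM, depending on the sample. Control 2 then corresponds to about 3 fragments and the Esrrb samples to 5.58 and 6.94, whereas the Hh-CM samples correspond to about 245 and 402. Read as a count, the 0 in Control 1 allows up to 3 fragments, or 0.478 FPKM, which is above the value in Control 2. These figures cover counting error only. An exact 0 in such files can also be a failed estimate, which was not tested for Control 1.

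In the control line, the level in Hh-CM 1 was 87.0 times and that in Hh-CM 2 was 103 times the level in Control 2. The exact Poisson interval of the 3 fragments (95%) puts these ratios between 29.8 and 422 and between 35.3 and 500.4. No ratio to Control 1 was formed, since it is listed at 0. In FPKM, the mean rose by 38.1 between Control and Hh-CM samples.

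In the NIH3T3-Esrrb line the starting level was above 0 in both samples, and the 4 ratios of an Esrrb+Hh-CM to an Esrrb sample ran from 127 to 138. The ratio of means was 132, or 107.5 with the midpoints of the limits. The mean rose by 143 FPKM, 105.0 FPKM more than in the control line. Without Esrrb 1, the log2(FPKM + 0.1) difference was 6.87, beside 6.92 with it.

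Whether the response to Hh-CM was larger in the Esrrb line depended on the scale. As a difference of log2(FPKM + 0.1), the response was 7.42 in the control line and 6.92 in the Esrrb line, a difference of -0.49. With a pseudocount of 1 the responses were 5.05 and 6.12, and the difference was 1.07. Without Control 1 the difference was 0.67. The log2 scale gives no stable order of the responses, because the control line starts from 0 and about 3 fragments.

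Retnla also had a higher mean in the Esrrb line under either medium. Under Hh-CM, the 4 ratios of an Esrrb+Hh-CM to an Hh-CM sample ran from 3.46 to 4.11, with a ratio of means of 3.76 (3.19 with midpoints). Under vehicle, the ratio of means was 5.40, with Control 1 at 0, and the Esrrb samples were 2.59 and 2.82 times Control 2, so these ratios lie on either side of those under Hh-CM. Mean levels differed by 106 FPKM under Hh-CM and by 0.888 FPKM under vehicle. These comparisons share samples with those of Hh-CM. In bulk samples, fewer expressing cells and less RNA per cell cannot be told apart, for Retnla and for every gene below.

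Among the 10285 genes tested (at least 1 FPKM in at least 2 samples), Retnla stood near the bottom of the ranking by level under vehicle and in its upper part under Hh-CM. The FPKM limit removes most low genes, so a low vehicle level falls near the bottom of this ranking. Among all 20182 genes with a value, Retnla ranked 12630 and 10496 in the Control samples and 9910 and 9840 in the Esrrb samples. Among tested genes it ranked 10206 and 10153 in the Control samples and 9903 and 9824 in the Esrrb samples. In the Hh-CM samples it ranked 2102 and 1792. In the Esrrb+Hh-CM samples it ranked 472 and 452, with 95.4% and 95.6% of tested genes below it.

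A gene was called changed when limma on log2(FPKM + 0.1) gave a Benjamini-Hochberg adjusted p below 0.05 and the log2 difference was at least 1 in size. Between Control and Hh-CM samples 1.96% of tested genes were called higher (202 genes), and 4 of them had a larger log2 difference than Retnla. Gli1, the transcription factor that serves as the standard readout of Hedgehog signalling, was at 0.0217 and 0.0308 FPKM in Control and at 26.8 and 28.1 FPKM in Hh-CM samples. The other genes above Retnla were listed at 0 in both Control samples. Pltp, a phospholipid transfer protein, was at 34.7 and 25.2 FPKM with Hh-CM. C920021L13Rik was at 43.5 and 35.4 FPKM with Hh-CM and at 0 in every other sample. Il4i1 is described with the IL-4 genes below. An exact 0 in such files can be a failed estimate, so no ratio was formed. Next below Retnla came Acmsd, an enzyme of tryptophan catabolism, at 0 in Control and 14.1 and 8.31 FPKM in Hh-CM samples. Acmsd was at 2.86 and 0 FPKM in Esrrb samples and at 0 in both Esrrb+Hh-CM samples. Its call was lost with a pseudocount of 0.001 (limma adjusted p = 0.0675) and without the FPKM limit (limma adjusted p = 0.104). Leaving out either Control, Hh-CM or Esrrb+Hh-CM sample also lost it.

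Between Esrrb and Esrrb+Hh-CM samples 3.45% of tested genes were called higher (355 genes), and again 4 had a larger log2 difference than Retnla. Gli1 rose from 0.106 and 0.0371 to 34.5 and 34.8 FPKM, and Pltp was listed at 0 under vehicle and at 12.6 and 17.8 FPKM with Hh-CM. Fdft1 (squalene synthase) and Ormdl2, a regulator of sphingolipid synthesis, were listed at 0 in both Esrrb samples and lay between 13.8 and 35.9 FPKM in all others. Fdft1 serves cells generally, so these zeros may be failed estimates. Traf3ip3 stood next below Retnla, at 0 in both Esrrb samples and at 7.996 and 5.46 FPKM in Esrrb+Hh-CM samples. Between Control and Esrrb+Hh-CM samples, where 4.6% of tested genes were called higher (473 genes), none had a larger log2 difference than Retnla (9.33).

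**Figure D2:**
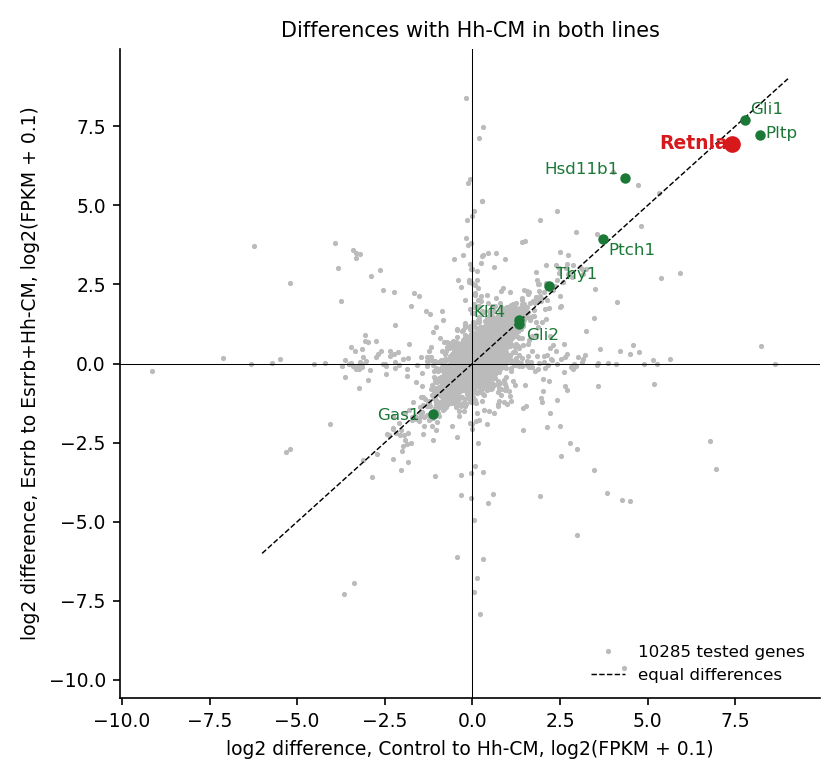
Difference in log2(FPKM + 0.1) with Hh-CM in the control line (horizontal axis) and in the NIH3T3-Esrrb line (vertical axis) for the 10285 tested genes (grey), with Retnla in red, some named genes in green and equality as a dashed line. Retnla (7.42 and 6.92) lies beside Gli1 (7.77 and 7.69) and Pltp (8.21 and 7.24), away from most tested genes.

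The separation between treated and vehicle samples was wide for few genes. The lowest Hh-CM-treated level of Retnla was 30.9 times its highest vehicle level, that of Esrrb 2. Among tested genes with a value above 0 under vehicle, those with a larger ratio included Gli1 and Ccdc3, each from vehicle levels of 0.106 FPKM or less. Hsd11b1, which regenerates active glucocorticoid, followed Retnla with a ratio of 20.4 and rose from 3.77 and 3.63 FPKM in Control to 78.9 and 76.8 FPKM in Hh-CM samples. Pltp, Fbxl2 and Gstt4 were listed at 0 in all 4 vehicle samples, where a 0 can be a failed estimate, and above 0 in all 4 treated ones. In Hh-CM samples Gstt4 was near the floor, at 0.296 and 0.267 FPKM, and Fbxl2 was at 4.01 and 3.81 FPKM. With midpoints of the confidence limits, the Control to Hh-CM calls of Gstt4 (limma adjusted p = 0.377) and Fbxl2 (limma adjusted p = 0.228) were lost.

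The Hedgehog pathway was examined next, as the pathway that the medium addresses. Of its 10 listed genes 9 were tested, and in each line 3 were called higher and 1 lower with Hh-CM. Over all tested genes 0.788% were called lower in the control line and 1.35% in the Esrrb line. The list had a median log2 difference of 0.26 and 0.198, beside 0.035 and 0.038 over all tested genes. The 4 were the same genes in both lines.

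Ptch1, the ligand's receptor and itself a target, rose from 2.44 and 2.98 FPKM in Control to 37.0 and 36.9 FPKM in Hh-CM samples (limma log2 difference 3.73, SE 0.11, adjusted p = 3.58e-05). In the NIH3T3-Esrrb line it rose from 3.08 and 2.76 to 43.9 and 47.7 FPKM (3.93, adjusted p = 2.52e-05). Ptch1 was thus detectable under vehicle in every sample, unlike Retnla. Gli1 had limma log2 differences of 7.77 (adjusted p = 3.08e-05) and 7.69 (adjusted p = 2.38e-05). It did not pass the test between Hh-CM samples (mean 27.4 FPKM) and Esrrb+Hh-CM samples (mean 34.6 FPKM), with a limma log2 difference of 0.34 and an adjusted p of 0.292.

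Gli2, a Gli activator, rose from 4.19 and 4.55 FPKM in Control to 10.6 and 11.8 FPKM in Hh-CM samples (1.33, limma adjusted p = 0.000332). In the Esrrb line it rose from 6.27 and 6.10 to 15.1 and 14.3 FPKM (1.24, limma adjusted p = 0.000249). Gas1, a co-receptor that Hedgehog signalling is known to repress, fell from 281 and 273 FPKM to 128 and 128 FPKM in the control line (-1.11, limma adjusted p = 0.000136). In the Esrrb line it fell from 275 and 276 to 96.1 and 87.0 FPKM (-1.59, limma adjusted p = 3.64e-05). Smo, Sufu, Gli3, Boc and Cdon were called in neither line, and Hhip, a usual target, was listed at 0 in every sample. The counts were the same without Esrrb 1.

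**Figure D3:**
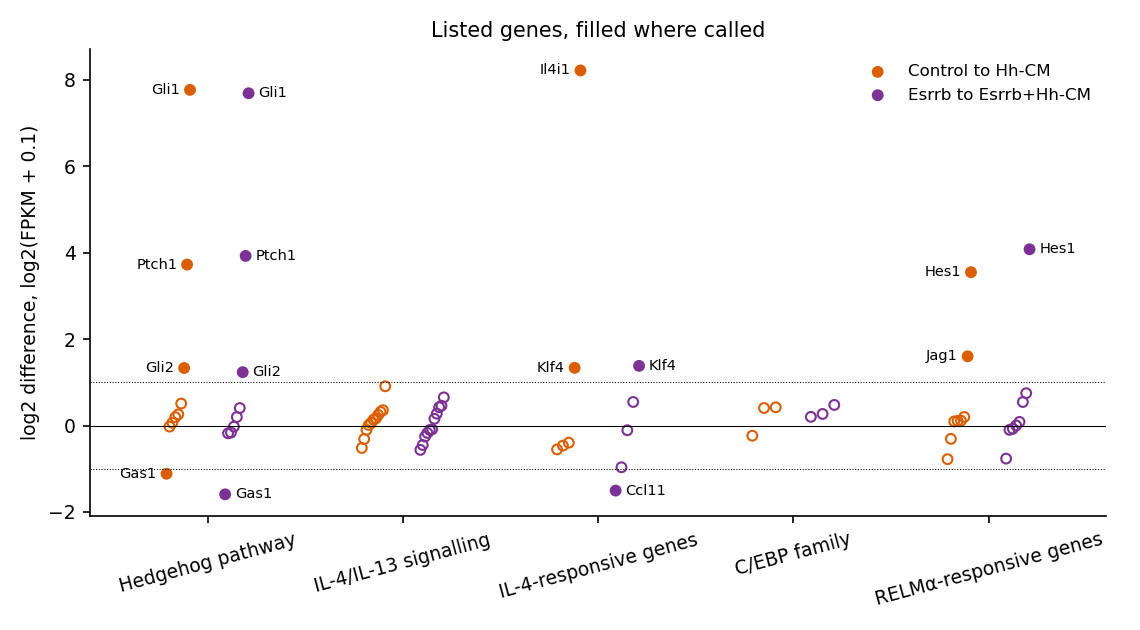
Difference in log2(FPKM + 0.1) with Hh-CM for the tested genes of 5 lists in the control line (orange) and the NIH3T3-Esrrb line (purple), filled where the gene was called, with dotted lines at 1 and -1. Of the 9 Hedgehog genes 4 are filled in each line, and none of the 11 IL-4 and IL-13 signalling genes is. Over all tested genes 2.75% were called in the control line and 4.8% in the Esrrb line, so the lack of calls does not set the IL-4 and IL-13 list apart.

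Since IL-4 and IL-13 are the known inducers of Retnla, their signalling genes were examined. None of the 11 tested members of this 16-gene list was called in either Hh-CM comparison, where 2.75% and 4.8% of all tested genes were. Of these 11, 5 in the control line and 4 in the Esrrb line had an unadjusted limma p below 0.05. Among all 10285 tested genes 3293 and 3662 did, so these counts do not set the list apart. In each line 3 or more kept an adjusted p below 0.05 at differences below the size required. The largest was that of Socs3 in the Esrrb line (-0.56, limma adjusted p = 0.00429). Their median log2 differences were 0.136 and -0.088. The ligand Il13 was listed at 0 in every sample and Il4 at no more than 0.365 FPKM. The receptor chain Il4ra was at 11.6 and 6.97 FPKM in Control and at 6.22 and 6.28 FPKM in Hh-CM samples, and at 6.60, 7.23, 5.43 and 4.66 FPKM in the NIH3T3-Esrrb samples. Il13ra1, its partner, lay between 20.4 and 32.2 FPKM in all samples. Stat6 was at 20.9 and 20.8 FPKM in Control and at 19.3 and 19.6 FPKM in Hh-CM samples. Il4ra, Il13ra1 and Stat6 were thus present under vehicle, while the ligands were at or near 0. The other listed receptor chains, Il2rg and Il13ra2, were also low, reaching 0.345 and 0.445 FPKM in any sample. Socs1 and Cish, feedback inhibitors of cytokine receptors, passed in neither comparison.

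Most other genes known to rise with IL-4 were too low to test. Of 16 listed genes 15 had a value and only 5 passed the FPKM limit. Arg1, Chi3l3 and Mrc1, which with Retnla mark alternatively activated macrophages, stayed at or below 0.0417 FPKM in all samples. Ccl22, Pdcd1lg2 and Alox15 were listed at 0 throughout. In the control line 2 of the 5 were called higher, beside 1.96% of all tested genes. With Hh-CM in the Esrrb line 1 was called higher and 1 lower, beside 3.45% and 1.35%. Klf4, a transcription factor, rose in both lines, from 14.5 and 14.6 FPKM in Control to 35.02 and 38.9 FPKM in Hh-CM samples (1.34, limma adjusted p = 0.000233). In the Esrrb line Klf4 went from 14.4 and 12.9 to 35.8 and 35.6 FPKM (1.38, limma adjusted p = 0.000121). It did not pass between Hh-CM and Esrrb+Hh-CM samples (-0.05, limma adjusted p = 0.682). Ccl11, the chemokine eotaxin, fell in the Esrrb line from 3.54 and 2.66 to 0.76 and 1.35 FPKM (-1.51, limma adjusted p = 0.019). The call was lost without Esrrb 1 (adjusted p = 0.0945) and without Esrrb+Hh-CM 1 (adjusted p = 0.0557).

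The other call belonged to Il4i1, an amino acid oxidase induced by IL-4, which was listed at 0 in both Control samples and at 27.3 to 42.4 FPKM in the other 6. Its locus also spans the whole of Nup62, a nuclear pore gene that has no locus of its own here. The 0 in Control may be a failed estimate, and the call is therefore uncertain. Slc7a2, an arginine transporter, was called in neither Hh-CM comparison.

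Of the C/EBP family, Cebpb, Cebpg and Ddit3 passed the FPKM limit. None was called with Hh-CM in the control or the Esrrb line, where 2.75% and 4.8% of all tested genes were. In the control line all 3 had an unadjusted limma p below 0.05, as did 3293 of the 10285 tested genes. Cebpb was at 42.2 and 37.3 FPKM in Control, 51.5 and 53.7 in Hh-CM, 52.8 and 61.5 in Esrrb, and 70.5 and 60.9 in Esrrb+Hh-CM samples. Cebpb thus stood lowest in Control, and its log2 difference with Hh-CM was 0.41 in the control line (limma adjusted p = 0.0544) and 0.20 in the Esrrb line (limma adjusted p = 0.25). Cebpa was listed at 0 in every sample.

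Of 10 genes reported to respond to RELMα in fibroblasts or vessels, 8 were tested. In the control line 2 were called higher with Hh-CM and in the Esrrb line 1, beside 1.96% and 3.45% of all tested genes. The median log2 differences of the list were 0.111 and 0.044. Jag1, a Notch ligand, rose from 2.87 and 3.15 to 8.27 and 10.5 FPKM in the control line (1.60, limma adjusted p = 0.000971). In the Esrrb line, where Retnla was higher, Jag1 was at 2.82 and 3.05 FPKM under vehicle and at 5.06 and 4.93 FPKM with Hh-CM, a log2 difference of 0.75 that was below the size required. Hes1, a target of Notch and Hedgehog, was at 0.55 and 0.72 FPKM in Control and 8.60 and 8.35 FPKM in Hh-CM samples (3.55, limma adjusted p = 0.000532). In the Esrrb line it went from 0.12 and 0.05 to 3.27 and 2.69 FPKM (4.08, limma adjusted p = 0.000188). The collagen genes Col1a1, Col1a2 and Col3a1 were not called. Acta2, the smooth muscle actin of myofibroblasts, was at 377 and 372 FPKM in Control and at 212 and 225 FPKM in Hh-CM samples, and at 124 and 125 FPKM in Esrrb+Hh-CM samples, where Retnla was highest. In Esrrb samples Acta2 was at 210 and 212 FPKM. Its log2 differences with Hh-CM were -0.78 (limma adjusted p = 0.00016) and -0.76 (limma adjusted p = 0.000108), below the size required. Between Control and Esrrb+Hh-CM samples it was called lower (-1.59, limma adjusted p = 1.1e-05).

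The relatives of Retnla did not share its pattern. Retn (resistin), a hormone of fat cells, was at 1.64 and 2.10 FPKM in Control, 0.59 and 1.17 in Hh-CM, 1.74 and 2.20 in Esrrb, and 0.87 and 1.33 in Esrrb+Hh-CM samples. It was called in none of the 5 pairs of conditions (limma adjusted p from 0.102 to 0.921). In these pairs, 2.75% of all tested genes were called between Control and Hh-CM, 4.8% between Esrrb and Esrrb+Hh-CM, 1.47% between Control and Esrrb, 6.22% between Control and Esrrb+Hh-CM, and 1.99% from Hh-CM to Esrrb+Hh-CM samples. Retnlb, an intestinal member 25.7 kb upstream of Retnla, was above 0 only in Hh-CM 2 (0.0821 FPKM) and Esrrb+Hh-CM 1 (0.133 FPKM). Retnlg, 30.1 kb downstream, was listed at 0 in every sample. The annotated transcripts of Retnla and Retnlg are 84.5% identical over 586 aligned bases, and the longest run they share is 49 bases. Those of Retnla and Retnlb are 72.5% identical with a longest shared run of 15 bases.

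The other genes around Retnla were examined to see whether they changed with it. The annotation holds 17 genes other than small RNAs and pseudogenes within 1 Mb on either side, Retnla included, of which 11 had a value in all samples. Dppa4, Dppa2, Morc1, Trat1 and Retnlb stayed at or below 0.337 FPKM, and Myh15 and Retnlg were listed at 0. Besides Retnla, 3 genes could be tested. Dzip3 and C330027C09Rik start 152 kb downstream, on opposite strands, and Ift57, a ciliary transport gene, starts 857 kb downstream.

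C330027C09Rik was at 4.89 and 4.27 FPKM in Control and at 6.65 and 7.02 FPKM in Hh-CM samples, and at 4.73 and 4.41 FPKM in Esrrb and 11.03 and 11.8 FPKM in Esrrb+Hh-CM samples. It was lowest under vehicle and highest with Hh-CM in the Esrrb line. It was called between Esrrb and Esrrb+Hh-CM samples (1.30, SE 0.09, limma adjusted p = 0.000334) and not between Control and Hh-CM samples, where the difference was 0.57 (limma adjusted p = 0.00984). The difference between both responses was 0.73 (limma adjusted p = 0.062), a test that 1.33% of all tested genes passed. Dzip3 and Ift57 were called in no comparison. Over all tested genes 2.75% were called from Control to Hh-CM and 4.8% from Esrrb to Esrrb+Hh-CM, and 1.47% to 6.22% across the 5 pairs of conditions. At these shares, the lack of calls does not set these neighbours apart. Ift57 lay between 12.4 and 14.5 FPKM in all samples.

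**Figure D4:**
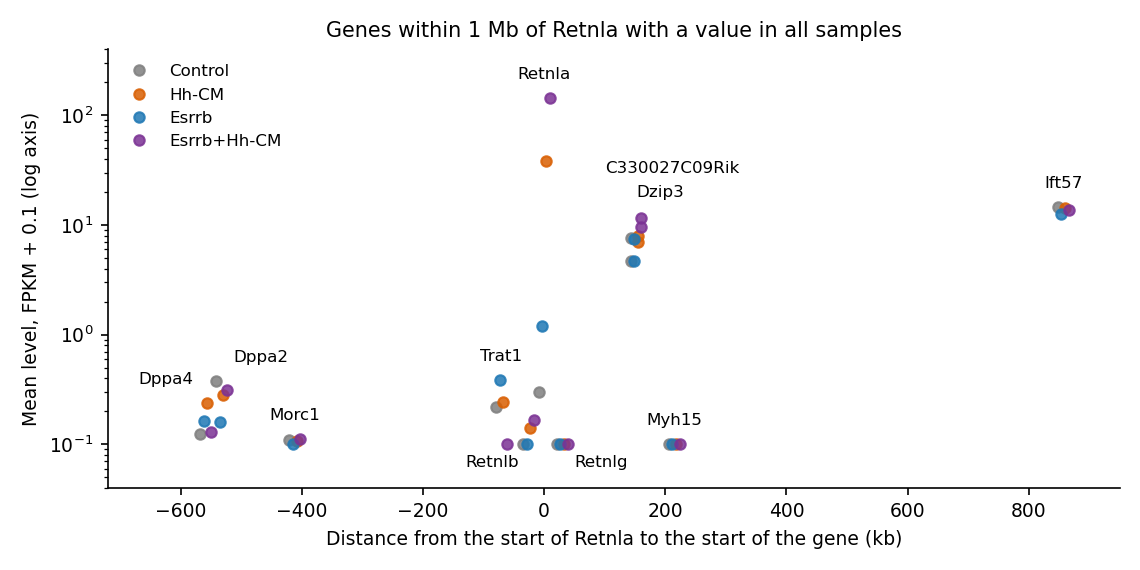
Mean level (FPKM + 0.1, log axis, n = 2 each) of the 11 genes within 1 Mb of Retnla that had a value, against the distance in kb from the start of Retnla to the start of the gene, with points of a gene set slightly apart by condition. Retnla spans the range from 0.202 to 144.1 FPKM, while genes at 0 sit at the level of the added 0.1 and Ift57 stays between 12.4 and 14.5 FPKM.

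Some genes followed Retnla across the samples at a far smaller scale. By Pearson's r of log2(FPKM + 0.1) over the 8 samples, the 10 most alike of the other 10284 tested genes were Tmem135, Zmiz1, Gli2, Tcf7l1, Cebpg, Rhbdf2, Erbb2, Gas6, Reep3 and Lbp, with r from 0.987 to 0.994. The 8 points are 4 conditions with 2 samples each, so r in large part describes the order and spacing of the conditions. In all, 204 genes had an r of at least 0.95. On this scale r also weighs the gap of Retnla between Control 1 (0) and Control 2 (0.403 FPKM), which rests on about 3 fragments. Each of the 10 genes was lower in Control 1 than in Control 2, so this gap near the floor helped to pick them. The 10 genes were chosen for this likeness, so their values are a description.

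Tmem135, the most alike, was at 10.8 and 11.7 FPKM in Control, 12.1 and 11.8 in Esrrb, 13.9 and 13.99 in Hh-CM, and 14.3 and 14.9 in Esrrb+Hh-CM samples. Its log2 difference between Control and Hh-CM samples was 0.31, beside 7.42 for Retnla. Lbp, which binds bacterial lipopolysaccharide, went from 2.29 and 2.41 FPKM in Control to 3.98 and 4.21 in Esrrb, 10.2 and 12.0 in Hh-CM, and 14.2 and 14.04 in Esrrb+Hh-CM samples. It had the largest log2 difference of the 10 between Control and Hh-CM samples, at 2.19. Rhbdf2, which controls the release of growth factors and cytokines, was at 3.36 and 3.79 FPKM in Control, 6.96 and 5.98 in Esrrb, 14.6 and 16.3 in Hh-CM, and 22.1 and 21.3 in Esrrb+Hh-CM samples. Gas6, a ligand of receptor kinases, had means of 30.9 FPKM in Control, 40.5 in Esrrb, 66.2 in Hh-CM and 86.9 in Esrrb+Hh-CM samples. Gli2, described above, is the only Hedgehog list gene among the 10, and Cebpg the only C/EBP gene.

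The 5 genes with the lowest r, from -0.980 to -0.988, were Cstb, Shc1, Ctsl, Ccl9 and Cxcl1. Ccl9, a chemokine, fell in steps from 5.17 and 4.76 FPKM in Control to 3.02 and 2.43 in Esrrb, 1.25 and 1.00 in Hh-CM, and 0.59 and 0.51 in Esrrb+Hh-CM samples. Cxcl1, a neutrophil-attracting chemokine, was at 113 and 115 FPKM in Control and at 36.3 and 32.3 FPKM in Esrrb+Hh-CM samples. Ctsl and Cstb encode a lysosomal protease and an inhibitor of such proteases.

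**Figure D5:**
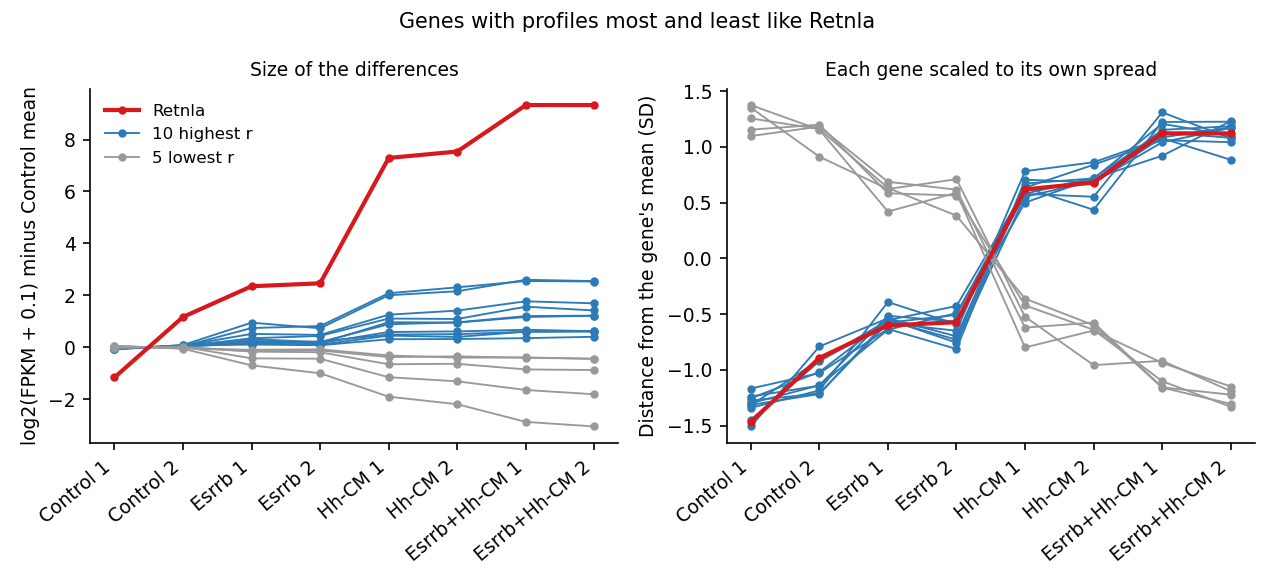
Profiles over the 8 samples of Retnla (red), the 10 genes with the highest r (blue) and the 5 with the lowest r (grey), as log2(FPKM + 0.1) minus the Control mean (left) and as the distance from each gene's mean in units of its own SD (right). On the right the blue lines follow Retnla closely, and on the left Retnla ends 9.33 above Control while Rhbdf2, which ends highest of the blue lines, ends 2.57 above it.

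The strict order Control, Esrrb, Hh-CM, Esrrb+Hh-CM, with no overlap between groups, was found in 366 tested genes (3.56%). In Retnla, Gli1, Icosl and Cmpk2, the lowest Esrrb+Hh-CM level was at least 16 times the highest Control level, which was above 0. A further gene, 1190007F08Rik, was listed at 0 in both Control samples, so no ratio was formed. Icosl, a costimulatory ligand of T cells, was at 0.05 and 0.04 FPKM in Control, 0.17 and 0.18 in Esrrb, 0.64 and 0.53 in Hh-CM, and 1.22 and 1.45 in Esrrb+Hh-CM samples. Cmpk2, an interferon-induced nucleotide kinase, was at 0.02 and 0.06 FPKM in Control and at 2.45 and 1.41 FPKM in Esrrb+Hh-CM samples. Retnla was the only one of these above 100 FPKM.

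Since RELMα is usually a product of macrophages and epithelium, markers of these cells were checked. All 10 fibroblast markers were expressed, with a summed level between 7980 and 10190 FPKM over all samples. Of them Thy1 alone was called with Hh-CM in either line, beside 2.75% and 4.8% of all tested genes. Thy1 rose from 88.0 and 87.3 to 385 and 410 FPKM in the control line (2.18, limma adjusted p = 2.86e-05). In the Esrrb line it rose from 94.8 and 97.8 to 551 and 510 FPKM (2.46, limma adjusted p = 1.06e-05). Of 14 macrophage markers 13 had a value, and 10 of these stayed below 1 FPKM in every sample. C1qa, C1qb, C1qc and Tyrobp were at 0 throughout, and Csf1r and Emr1 (F4/80) stayed at or below 0.14 FPKM. The macrophage sum was 4.75 to 6.06 FPKM in Control, 6.99 to 7.78 in Hh-CM, 7.13 to 8.90 in Esrrb and 6.58 to 8.13 in Esrrb+Hh-CM samples. It did not follow the order of Retnla. Most of it came from Cd68, Lyz2 and Cd14. None of these was called with Hh-CM, where 2.75% and 4.8% of all tested genes were, so this does not set them apart.

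All 10 epithelial markers and the 8 eosinophil and mast cell markers with a value stayed below 1 FPKM in every sample. Their sums reached 1.05 FPKM (epithelial, in Esrrb+Hh-CM) and 0.0445 FPKM (eosinophil and mast cell, in Hh-CM), beside 144.1 FPKM for Retnla. Of 10 adipocyte markers 7 stayed below 1 FPKM. Fabp4, a fat cell lipid carrier, fell with Hh-CM in the control line from 8.40 and 9.34 to 4.61 and 3.79 FPKM (-1.06, limma adjusted p = 0.0216). In the Esrrb line it fell from 3.85 and 3.81 to 1.35 and 2.11 FPKM (-1.13, limma adjusted p = 0.0135), and this call was lost without Esrrb 1 (adjusted p = 0.0642), without Esrrb 2 (adjusted p = 0.0609) and without Esrrb+Hh-CM 1 (-0.83). The call in the control line was lost without either Control or either Hh-CM sample (adjusted p from 0.0581 to 0.104). Lpl, lipoprotein lipase, was the most abundant adipocyte marker and stood in the order of Retnla, at 104.0 and 109.6 FPKM in Control, 132 and 137 in Esrrb, 140.1 and 142 in Hh-CM, and 176 and 174 in Esrrb+Hh-CM samples. Its log2 differences with Hh-CM were 0.40 (limma adjusted p = 0.00167) and 0.38 (limma adjusted p = 0.00128), below the size required. The adipocyte sum, mostly Lpl, was 114 to 121 FPKM in Control, 138 to 143 in Esrrb, 145.5 to 147 in Hh-CM and 178 in both Esrrb+Hh-CM samples, and its part in the level of Retnla was not tested. The defining markers Adipoq, Lep and Cidec were at 0 in every sample.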

How the data were processed

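RNA-Seq tables of 8 samples, 2 per condition, were used as deposited, grouped by their labels. The authors cleaned reads with FASTX-Toolkit, aligned with Bowtie2 and TopHat2 (genome mm9) and ran Cufflinks on every sample with the annotation as a guide, and the deposited values are FPKM with confidence limits. Tool versions are not given in the sources used here. Columns hold no read counts, so count tests were not applied.

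Loci were joined to genes of the mm9 annotation where their overlap was at least 0.5 of their union, and several loci of a gene were added up. Genes with at least 1 FPKM in at least 2 samples (10285 of 20182) entered a limma fit (version 3.58.1, R 4.3.3) of log2(FPKM + 0.1) on the 4 conditions, with a variance trend and Benjamini-Hochberg adjustment over all tested genes. Fold changes on this scale understate changes of low genes. Changed genes had an adjusted p below 0.05 and a log2 difference of at least 1 in size, while for the difference between the responses of both lines no size was required. The procedure was first tested on simulated data. Other steps used Python 3.11.15, pandas 2.3.3, scipy 1.17.1 and matplotlib 3.10.9.

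Fragments behind low values were estimated from 157 low values of transcripts of 538 to 658 bases. Beside Retnla, the genes named are the 10 most and 5 least alike by r, those within 1 Mb, called members of fixed lists, and the genes above and next below Retnla by log2 difference. Retnla and the lists were chosen with earlier results of these data known, and 1 gene of a list is not reported here. Genes named outside this rule were chosen after their values were seen: Hsd11b1, Ccdc3, Fbxl2, Gstt4, those in the strict order of conditions, and listed genes that were not called.

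Alternatives tried were a pseudocount of 1 or 0.001, dropping the FPKM limit or applying it to every sample, a replicate block, fits of the compared groups alone, rescaling to a common upper quartile, dropping the variance trend, taking a gene's largest locus, leaving out each sample, and other measures of likeness and rank. Chosen after seeing the data were the midpoint of the confidence limits and an overlap with the gene of at least 0.8.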

Additional observations from a re-analysis of the deposited data

Results flagged for a closer look

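For 7 of the genes named, the difference between the responses to Hh-CM of both lines passed the limma test (adjusted p below 0.05), as it did for 1.33% of all tested genes. As the response in the NIH3T3-Esrrb line minus that in the control line on the log2(FPKM + 0.1) scale, it was -7.67 for Il4i1, -8.62 for C920021L13Rik, 8.59 for Fdft1, 7.17 for Ormdl2 and -3.80 for 1190007F08Rik. Each of these 5 was listed at 0 in both samples of at least 1 condition, where an exact 0 can be a failed estimate. Without Esrrb 1 their limma adjusted p ranged from 2.8e-05 to 0.0192.

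The other differences were small. For Ddit3, a stress-induced C/EBP gene, the difference was 0.50 (limma adjusted p = 0.00868), with means of 195 FPKM in Control and 165 FPKM in Hh-CM samples, against 140 FPKM in Esrrb and 169 FPKM in Esrrb+Hh-CM samples. Its mean was lower with Hh-CM in the control line and higher in the Esrrb line. For Gas1 the difference was -0.48 (limma adjusted p = 0.0487), and it did not pass when any 1 of the Control, Hh-CM or Esrrb samples was left out (adjusted p from 0.116 to 0.139), nor with the replicate block, without the variance trend, without the FPKM limit or with midpoints of the confidence limits (adjusted p from 0.0863 to 0.0975).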

How the results depend on the processing

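Over 20 main results and 319 values under alternatives, 288 stayed near the main value, 29 moved and 2 reversed. For counts, near meant within a fixed ratio. For the log2 differences of Retnla it meant closer than the replicate SD, which was 1.17 from Control to Hh-CM. Some alternatives, such as the replicate block or leaving out a sample of another condition, could not change these differences. The tally is therefore not a measure of robustness. Changed genes numbered 283 from Control to Hh-CM, 494 from Esrrb to Esrrb+Hh-CM, 151 from Control to Esrrb, 205 from Hh-CM to Esrrb+Hh-CM and 640 from Control to Esrrb+Hh-CM. With a pseudocount of 1 they were 179 from Control to Hh-CM, 88 from Control to Esrrb and 127 from Hh-CM to Esrrb+Hh-CM. Where every sample had to reach 1 FPKM, which tests fewer genes, these counts were 186, 70 and 110. The 137 differences between responses became 83 without the variance trend, 63 with midpoints of the confidence limits, 178 with rescaling to a common upper quartile and 64 to 166 with a sample left out (80 without Control 1, 74 without Hh-CM 2, 81 without Esrrb 1, 64 without Esrrb 2). With the replicate block there were 53, and 272, 480, 145, 194 and 631 in the comparisons above, where it also called Retn lower from Control to Hh-CM (-1.06, limma adjusted p = 0.0322, beside 0.102 without it). Replicate numbers did not pair the samples (r of deviations from -0.069 to 0.082).

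For Retnla, the log2 differences depended on the pseudocount through the vehicle samples. From Control to Hh-CM the difference was 5.05 with a pseudocount of 1 and 10.89 with 0.001, and from Esrrb to Esrrb+Hh-CM 6.12 and 7.05 (6.60 with midpoints). From Control to Esrrb it was 0.82 and 5.76, and from Control to Esrrb+Hh-CM 6.94 and 12.81. From Hh-CM to Esrrb+Hh-CM it was 1.65 with midpoints. With each sample left out, these ranged from 6.25 to 8.58, 6.87 to 6.98, 1.24 to 3.57, 8.16 to 10.49 and 1.79 to 2.04. The difference between responses reversed with a pseudocount of 1 (1.07) and without Control 1 (0.67), and was -3.84 with a pseudocount of 0.001 and -1.66 without Control 2. Of the 10 genes most like Retnla, 1 was among the 33 at a Spearman rho of 1 and 0 among the 10 highest on linear FPKM. Mean ranks of Retnla by level were 1948 and 463 among all genes and 1947 and 462 among tested genes. Of the calls of named genes, 75 held under every alternative run, 26 were lost under at least 1 of them and none reversed.

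Depth limits the vehicle levels of Retnla to a few fragments, and 2 samples per condition allow no test of outliers. Causes of the changes above were not tested beyond this.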

Other observations

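On linear FPKM, where the high Esrrb+Hh-CM samples weigh most, the genes whose level followed Retnla most closely were Kifc5b, Plk1, Kif2c, Ccnb1, Kif4, Incenp, Ankle1, Bub1, Hat1 and Top2a (Pearson's r from 0.994 to 0.998 over the 8 samples). They were chosen after their values were seen. Among them, Plk1 encodes a mitotic kinase, Ccnb1 cyclin B1, Bub1 a spindle checkpoint kinase and Top2a a topoisomerase. Plk1 was at 3.59 and 3.75 FPKM in Control, 4.73 and 4.72 in Esrrb, 7.17 and 7.93 in Hh-CM, and 16.4 and 16.6 in Esrrb+Hh-CM samples. Top2a was at 13.96 and 14.1 FPKM in Control, 20.8 and 20.7 in Esrrb, 43.2 and 41.2 in Hh-CM, and 97.1 and 92.8 in Esrrb+Hh-CM samples. Both stood highest with Hh-CM in the Esrrb line, and both were clearly present under vehicle, where Retnla was at 0 to 1.14 FPKM. Between Hh-CM and Esrrb+Hh-CM samples their log2 differences were 1.12 and 1.17, beside 1.91 for Retnla.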
